A study of Mus musculus with 6 samples.

Results

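The 62 genes described here are those whose level differed widely between the WT libraries while the KO lines lay close together. They were picked from the measured values themselves, out of 10989 genes with a deposited value. A gene was taken when its level in one WT library was at least 4 times its level in the other after adding 15 units to each. The higher WT library had to reach at least 200 units, and the highest of the 4 KO lines could be at most 2 times the lowest after the same addition. Of the 62 genes, 29 stood higher in WT replicate 1 and 33 in WT replicate 2, and the directions are described apart. The WT condition alone held for 36 genes higher in WT replicate 1 (0.328% of all genes) and 57 higher in WT replicate 2 (0.519%).

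RNA was sequenced from MPI-II cells, a mouse embryonic stem cell line, with a disrupted or an intact Ddx5 gene. The gene encodes an RNA helicase also called p68. The KO group is 4 DDX5-/- lines, each grown from 1 clone after a Cas9 nickase and paired guides cut the second exon, followed by G418 selection. The WT group is 2 DDX5+/+ libraries labelled as replicates of the parental cells. All cells were kept on feeder cells in serum medium that held leukemia inhibitory factor and inhibitors of MEK (PD0325901) and GSK3 (CH99021), at passages given as one common range. The labels do not say whether the WT replicates came from separate cultures, so the p-values measure only the spread between these libraries, which may be technical. The design text speaks of triplicates, whereas 4 KO and 2 WT libraries were analysed here.

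Stem cells in this medium express the naive pluripotency genes, and RNA taken from a plate with feeder cells also holds fibroblast transcripts. Genes with near-identical copies elsewhere in the genome share sequenced fragments with those copies, and short transcripts yield few fragments. The 62 genes form no known pathway. They include ion channels, matrix proteins, subunits of common enzymes, noncoding RNAs and pseudogenes.

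The values are a normalized score in deposited units, whose link to read number is not known, and sequencing depth is unknown. Library totals ran from 14612799 to 14722877 units as a result of the normalization. Ddx5 itself had 5854, 8450, 12793 and 5659 units in the KO lines, in order of their numbers, against 36433 and 36436 units in WT replicates 1 and 2. WT replicate 2 stood apart from the other libraries. It listed 131 genes at 0, against 13 to 19 genes in the other 5, and 9 of the 62 genes were at 0 there and in no other library. Across all genes the log2 levels of the KO pairs correlated at a Pearson r of 0.967 to 0.990, KO with WT libraries at 0.890 to 0.932, and the WT pair at 0.934. The naive pluripotency genes were present in all libraries, with summed levels of 155874 to 163937 units in KO lines. The sums were 208515 and 134031 units in WT replicates 1 and 2. Most of that WT gap lay in Dppa5a, one of the 62, which had 78894 and 17548 units in these libraries. Each KO sum held 36418 units of Dppa5a. Over the list the median log2 difference of WT replicate 2 minus WT replicate 1 was -0.25.

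The same condition of a 4-fold difference and a level of 200 units was counted in every pair of libraries. Between KO lines it held for 0 to 18 genes, with a median of 3.5 over the 6 pairs, and between the WT libraries for 93 genes. Between a KO line and WT replicate 1 it held for 147 to 174 genes, and between a KO line and WT replicate 2 for 203 to 253. The 62 genes contributed 4 to 6 of these against WT replicate 1 and 38 to 42 against WT replicate 2. These counts are descriptions of single libraries, and the rule itself fixed that no KO pair could contribute one of the 62.

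**Figure D1:**
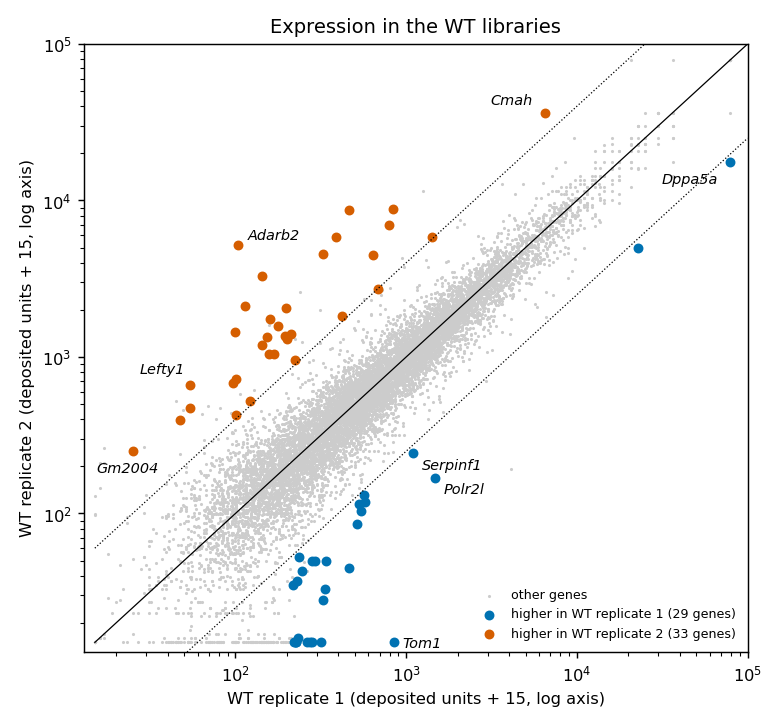
Level of each gene in WT replicate 1 (x) and WT replicate 2 (y), in deposited units plus 15 on log axes, with the line of equality and dotted lines at a 4-fold difference. The 29 genes higher in WT replicate 1 and the 33 genes higher in WT replicate 2 are coloured; genes beyond the dotted lines that stayed grey failed the level or the KO condition.

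The KO lines lay mostly near WT replicate 1. On the log2 scale the mean KO level was nearer WT replicate 1 for 50 of the 62 genes (80.6%) and nearer WT replicate 2 for 12. It was within 2-fold of WT replicate 1 for 49 genes and of WT replicate 2 for 5. Among the other 946 genes with at least 2-fold between the WT libraries, 657 (69.5%) had their mean KO level nearer WT replicate 1. For genes higher in WT replicate 1 the KO mean was nearer WT replicate 1 in 20 of 29 (68.97%) and nearer WT replicate 2 in 9, and among the other genes at least 2-fold higher in WT replicate 1 it was nearer that library in 75.2%. For genes higher in WT replicate 2 it was nearer WT replicate 1 in 30 of 33 (90.9%) and nearer WT replicate 2 in 3, and among the other genes of that direction it was nearer WT replicate 1 in 59.2%. No test was made of these counts, since they use the values that chose the genes.

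Some of the sequences that separate these genes, or fail to, are printed here because the levels of several of them can be read only together with a near-identical copy. All are from GENCODE M21 transcripts (build mm10), read 5′ to 3′, 90 bases each. Capitals mark bases that differ between the copies. Gm2004 (chr2:176141591-176149825, minus strand) and Gm14419 (chr2:177000956-177012787, plus strand) are predicted protein-coding genes whose transcripts were identical over all 1749 bases, so the first 90 coding bases below are the same.
Gm2004: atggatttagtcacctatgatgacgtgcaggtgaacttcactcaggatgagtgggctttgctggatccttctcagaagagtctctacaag
Gm14419: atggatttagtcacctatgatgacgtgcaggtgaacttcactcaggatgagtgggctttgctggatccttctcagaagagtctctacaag

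Rnaset2a (chr17:8115445-8148097, minus strand) and Rnaset2b (chr17:6970634-7011299, plus strand) encode copies of a lysosomal ribonuclease of the T2 family. Their transcripts differed at 13 of 2448 aligned bases (99.47% identity), none of them within the first 90 coding bases.
Rnaset2a: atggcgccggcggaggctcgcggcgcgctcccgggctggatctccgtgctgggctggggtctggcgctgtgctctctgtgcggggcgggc
Rnaset2b: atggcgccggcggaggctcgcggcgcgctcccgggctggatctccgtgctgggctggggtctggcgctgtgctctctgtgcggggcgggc

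Tom1 (chr8:75033705-75070121, plus strand), an adaptor that sorts ubiquitin-marked cargo at endosomes, has a processed pseudogene, Gm5884, on chromosome 6 (chr6:128644913-128646391, plus strand). The pseudogene matched the Tom1 transcript at all of 1479 aligned bases, and the first 90 coding bases of Tom1 lie within the match. No value for Gm5884 was analysed here.
Tom1: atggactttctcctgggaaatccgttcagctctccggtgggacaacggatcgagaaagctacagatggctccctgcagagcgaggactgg
Gm5884: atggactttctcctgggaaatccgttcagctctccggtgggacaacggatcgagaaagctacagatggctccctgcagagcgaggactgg

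Gm7367 (chr7:60155609-60156100, plus strand) is a processed pseudogene of Ubald2 (chr11:116434094-116439077, plus strand). Over 492 aligned bases they differed at 1, A436G, counted from the first base of the Gm7367 transcript with the Gm7367 base first, and the stretch around it is shown.
Gm7367: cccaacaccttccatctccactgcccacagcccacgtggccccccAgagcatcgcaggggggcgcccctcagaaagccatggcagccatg
Ubald2: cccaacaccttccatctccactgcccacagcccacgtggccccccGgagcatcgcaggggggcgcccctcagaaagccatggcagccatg

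Gm2004 and Gm14419 went opposite ways between the WT libraries and their sum did not. Gm2004 stood at 180, 168, 180 and 156 units in the KO lines, against 10 and 234 units in WT replicates 1 and 2. Gm14419 stood at 169, 172, 187 and 160 units in the KO lines, against 276 and 35 units in WT replicates 1 and 2. In the KO lines both copies were level with each other, while each WT library held nearly the whole of the signal in a different copy. The sum of both was 349, 340, 367 and 316 units in the KO lines, against 286 and 269 units in the WT libraries, a ratio of WT replicate 2 over WT replicate 1 of 0.941. Gm14419 also shares 81.2% of its 31-base words with Gm14295, which is not among the 62 and stood at 288, 272, 288 and 260 units in the KO lines, against 328 and 610 units in the WT libraries. The sum over these 3 genes was 637, 612, 655 and 576 units in the KO lines, against 614 and 879 units in the WT libraries. The level of any one copy is therefore uncertain.

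The same opposite pattern was seen at the Rnaset2 copies. Rnaset2a stood at 336, 172, 321 and 222 units in the KO lines, against 445 and 30 units in WT replicates 1 and 2. Rnaset2b stood at 24, 134, 22 and 115 units in the KO lines, against 62 and 386 units in the WT libraries. It met the WT condition and failed that on the KO spread. KO lines 1 and 3 held most of the signal in Rnaset2a, as WT replicate 1 did, and KO lines 2 and 4 held it in both. The sums were 360, 306, 343 and 337 units in the KO lines, against 507 and 416 units in the WT libraries, a ratio of WT replicate 2 over WT replicate 1 of 0.821.

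**Figure D2:**
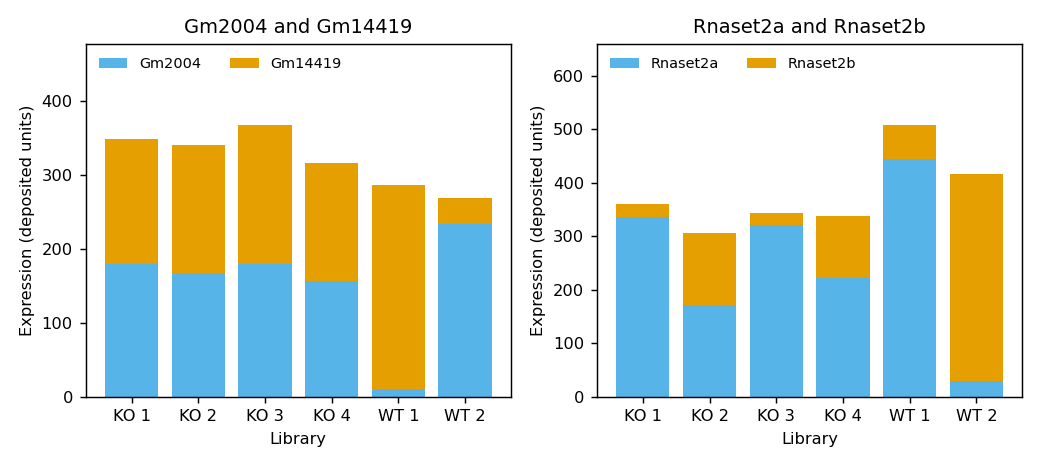
Stacked bars give the levels of Gm2004 and Gm14419 (left) and of Rnaset2a and Rnaset2b (right) in deposited units in each KO line and WT replicate. The height of a bar is the sum of the copies, 269 to 367 units for Gm2004 and Gm14419 and 306 to 507 units for Rnaset2a and Rnaset2b, while the split between copies is turned round between WT replicates 1 and 2.

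Gm26543, whose levels are given further on, shares 20.99% of its 31-base words with Pign, which stood at 661, 672, 686 and 648 units in the KO lines, against 646 and 822 units in WT replicates 1 and 2. Their sum was 929, 962, 988 and 893 units in the KO lines, against 894 and 822 units in the WT libraries, a ratio of WT replicate 2 over WT replicate 1 of 0.919. At Gm7367 and at the Lefty genes the partner did not go the opposite way between the WT libraries. Gm7367 stood at 334, 197, 365 and 214 units in the KO lines, against 324 and 35 units in WT replicates 1 and 2, while Ubald2 stood at 1902, 1536, 1396 and 1554 units in the KO lines, against 1671 and 1591 units in the WT libraries. The pseudogene was low in WT replicate 2 alone, and the level of its parent gene was much the same in both WT libraries. The sum of Gm7367 and Ubald2 was 1995 and 1626 units in WT replicates 1 and 2, a ratio of WT replicate 2 over WT replicate 1 of 0.815. Pign and Ubald2 made up most of the sums they are in, so these 2 ratios say little about Gm26543 and Gm7367. Lefty1 and Lefty2 encode secreted antagonists of Nodal. Lefty1 (chr1:180935022-180938400) stood at 884, 985, 936 and 1274 units in the KO lines, against 39 and 644 units in WT replicates 1 and 2. Lefty2 stood at 1098, 1527, 1586 and 2791 units in the KO lines, against 928 and 4252 units in the WT libraries. WT replicate 2 was thus the higher WT library for both Lefty genes. Their sum was 1982, 2512, 2522 and 4065 units in the KO lines, against 967 and 4896 units in WT replicates 1 and 2, so it moved with them. All 4 KO lines lay above both WT libraries for Lefty1, and its difference did not pass the test described further on (log2 2.44, SE 0.849, adjusted p = 0.0878, limma).

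Shared sequence was more frequent among the 62 genes than among the rest. Of the 61 genes matched to the annotation, 24 (39.3%) had at least 10% of their 31-base words in a gene elsewhere, as did 10.4% of all other genes. The share was 9 of 28 genes (32.1%) higher in WT replicate 1 and 15 of 33 (45.5%) higher in WT replicate 2. At least 50% of the words were shared by 5 and 2 genes of these directions. Short and simple transcripts were frequent as well. The longest transcript was under 1000 bases in 12 of 61 genes (19.7%), against 3.69% of other genes, and 18 (29.5%) had 1 or 2 exons, against 5.67%. Genes not annotated as protein coding made up 15 of 61 (24.6%), against 2.85% of the others. The GC content differed little, with a median of 46.4% in the 62 genes and of 49.0% in the others.

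Read the other way round, the share of genes that met the rule grew with shared sequence. It was 0.299% of genes with under 1% of their words elsewhere, 0.547% at 1 to 10%, 1.89% at 10 to 50% and 2.72% at 50% or more. For genes higher in WT replicate 1 the shares in these bins were 0.240%, 0.0966%, 0.445% and 1.95%, from 16, 3, 4 and 5 genes. For genes higher in WT replicate 2 they were 0.0599%, 0.451%, 1.45% and 0.778%, from 4, 14, 13 and 2 genes. By length, 11 of 121 genes with a longest transcript under 700 bases met the rule (9.09%), and 0.303 to 0.752% in the longer classes. These shares are descriptions, and their part in the difference between the WT libraries was not tested.

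**Figure D3:**
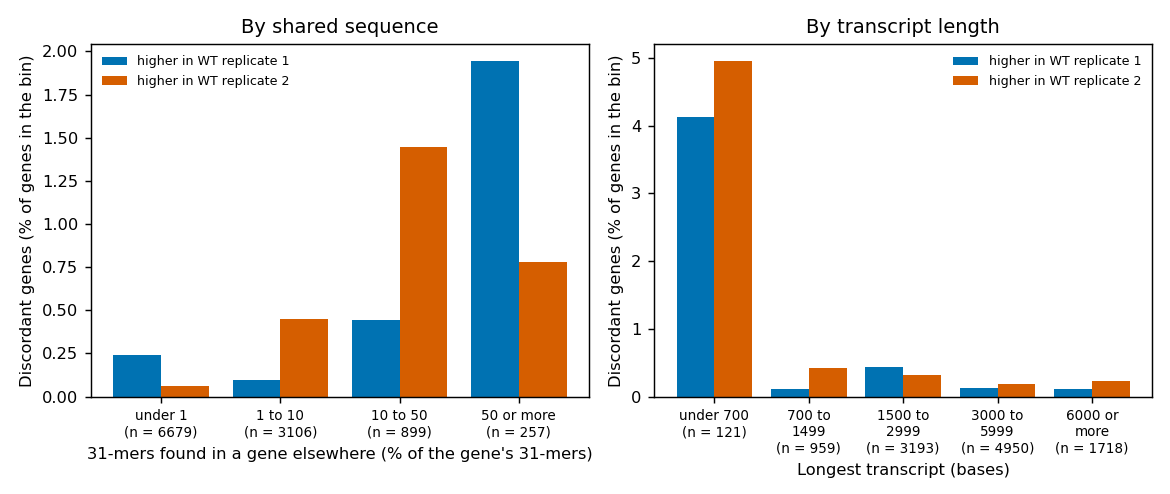
Share of measured genes, in percent of the genes in each bin, that met the rule and stood higher in WT replicate 1 or in WT replicate 2, by the share of 31-base words found in a gene elsewhere (left) and by the length of the longest transcript (right). The bin of transcripts under 700 bases, with 121 genes, has the highest shares for both directions, 4.13% and 4.96%.

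Among the 29 genes higher in WT replicate 1 the fold between the WT libraries, with 15 added, ran from 4.33 to 56.2 with a median of 6.78. The genes with the widest gaps were those at 0 in WT replicate 2. Tom1 had the widest, at 514, 878, 834 and 934 units in the KO lines, against 828 and 0 units in WT replicates 1 and 2. The KO lines were on the side of WT replicate 1, and only WT replicate 2 lacked a value above 0.

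Receptor, channel and signalling genes best known from neurons made up 6 of the 29, and all 6 had their KO level nearer WT replicate 1. Fgf13, an intracellular partner of voltage-gated sodium channels (chrX:59062145-59568071), stood at 272, 263, 248 and 257 units in the KO lines, against 265 and 0 units in WT replicates 1 and 2. Glrb, the beta subunit of the glycine receptor (chr3:80843599-80913660), stood at 229, 282, 234 and 332 units in the KO lines, against 260 and 0 units in the WT libraries. Kcnh7, a voltage-gated potassium channel subunit (chr2:62693414-63184287), stood at 297, 251, 290 and 262 units in the KO lines, against 205 and 0 units in the WT libraries. For Fgf13 and Glrb WT replicate 1 lay inside the range of the KO lines, and for Kcnh7 below it. Tmeff2, a transmembrane protein with follistatin-like domains (chr1:50900647-51187270), stood at 130, 160, 148 and 152 units in the KO lines, against 210 and 0 units in the WT libraries. Lphn3, the adhesion receptor also named Adgrl3 (chr5:81020138-81825133), stood at 194, 200, 183 and 205 units in the KO lines, against 209 and 0 units in the WT libraries. In each of these 5 genes, 5 of 6 libraries agreed on a modest level and WT replicate 2 was listed at 0. The kinase gene Lmtk3 was the sixth, with a WT fold of 6.19.

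Of the 8 loci with a clone or Gm name in this direction, 3 were also at 0 in WT replicate 2. Gm26543, annotated inside an intron (chr10:49219422-49225653), stood at 268, 290, 302 and 245 units in the KO lines, against 248 and 0 units in WT replicates 1 and 2. RP23-448A11.8, an RNA antisense to Rhoa with overlapping exons (chr9:108337089-108338273), stood at 196, 178, 176 and 190 units in the KO lines, against 211 and 0 units in the WT libraries. AC123072.1, which was not matched to the annotation, stood at 527, 354, 370 and 385 units in the KO lines, against 300 and 0 units in the WT libraries. Whether the authors' counting used strand is not given in the sources used here, so fragments of the Rhoa antisense RNA and of Rhoa, which encodes a small GTPase, cannot be told apart. Rhoa itself stood at 7350, 6973, 7350 and 7235 units in the KO lines, against 6973 and 5382 units in the WT libraries.

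**Figure D4:**
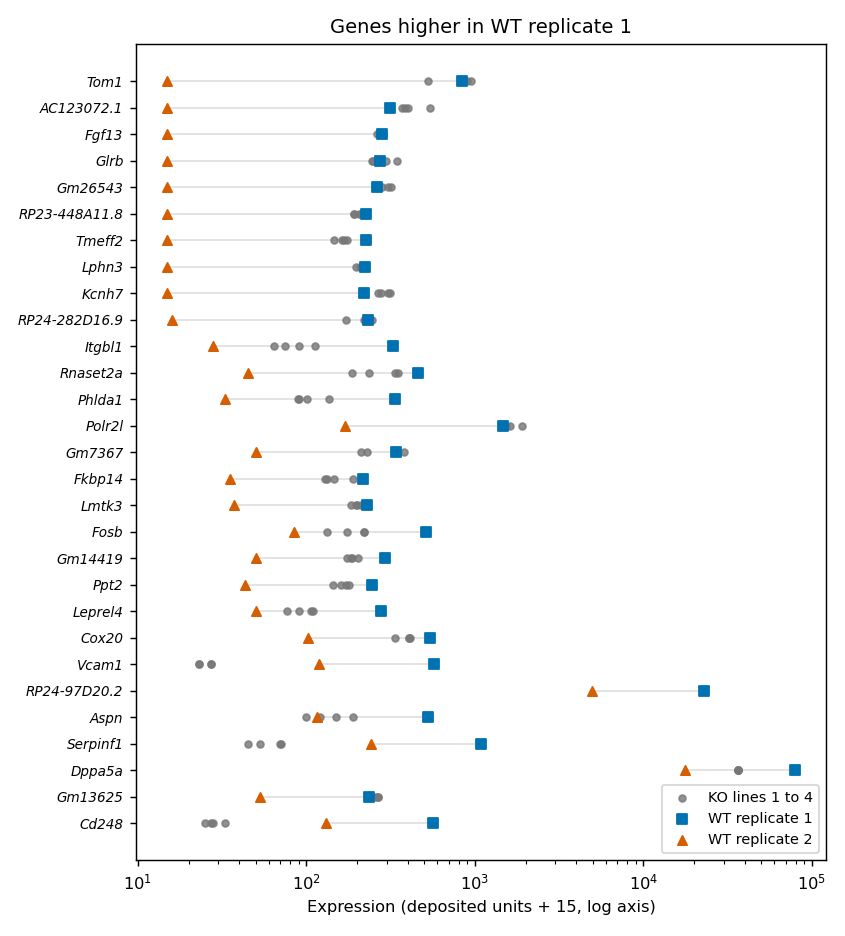
Levels of the 29 genes higher in WT replicate 1, in deposited units plus 15 on a log axis, with 1 row per gene ordered by the fold between the WT libraries. KO lines are circles, WT replicate 1 squares and WT replicate 2 triangles; the KO circles lie by the square of WT replicate 1 in rows such as Tom1 and Fgf13 and below both WT symbols in the rows of Vcam1, Serpinf1 and Cd248.

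Genes of matrix, adhesion and the fibroblast surface were the other sizeable group in this direction, and here the KO lines lay low. Of the 7 genes, 6 had their KO level nearer WT replicate 2, and the mean KO levels ran from 10 to 134 units. Serpinf1, a secreted serpin that inhibits vessel growth (chr11:75409769-75422701), stood at 55, 30, 56 and 38 units in the KO lines, against 1078 and 227 units in WT replicates 1 and 2. Vcam1, a cell adhesion molecule (chr3:116109949-116129688), stood at 12, 8, 12 and 8 units in the KO lines, against 556 and 104 units in the WT libraries. Cd248, the surface protein endosialin of fibroblasts and pericytes (chr19:5068078-5070682), stood at 10, 13, 18 and 12 units in the KO lines, against 552 and 116 units in the WT libraries. All 4 KO lines lay below both WT libraries for these 3 genes. The other 4 were the collagen-folding enzyme gene Fkbp14, the collagen-modifying factor gene Leprel4, the matrix proteoglycan gene Aspn and Itgbl1, a secreted integrin-like protein gene.

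None of these 7 is on the list of feeder fibroblast markers. That list was lowest in the KO lines and highest in WT replicate 1, an order that Serpinf1, Vcam1 and Cd248 had too, while the mean KO level of the other 4 lay above WT replicate 2. The 25 measured genes of the list, with none at 0 in a WT library, summed to 48170, 43970, 45983 and 43952 units in the KO lines, against 108362 and 69796 units in WT replicates 1 and 2. Between the WT libraries the median log2 difference of WT replicate 2 minus WT replicate 1 was -0.74 over the list and -0.04 over all genes. In the limma fit 23 of the 25 were lower in KO and none higher, against 7.34% lower and 9.75% higher over all genes. The part of fibroblast RNA in the levels of the 7 genes was not tested, and in bulk RNA fewer cells of a type and less RNA per cell cannot be told apart.

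Fosb and Phlda1, which cells switch on quickly after growth factors, also had their KO level nearer WT replicate 2. Fosb, a subunit of the AP-1 transcription factor, stood at 160, 206, 118 and 204 units in the KO lines, against 497 and 70 units in WT replicates 1 and 2. Its relative Fos, not one of the 62, stood at 800, 712, 666 and 995 units in the KO lines, against 1634 and 428 units in the WT libraries. For Fosb and Fos the KO lines lay between the WT libraries. Between the WT libraries Fosb was the extreme of its family, at log2 -2.59, followed by Fos. The 5 measured Fos and Jun genes outside the 62 differed between the WT libraries by log2 -1.90 (Fos) to 0.38 (Jund), with a median of -0.39. The list of 27 immediate early and stress genes held no other member. Of its genes, 1 was called higher and 6 lower in KO, against 9.75% and 7.34% over all genes.

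Subunits of common machines and abundant genes filled the rest of this direction. Polr2l, a small subunit of RNA polymerase II (chr7:141471860-141475132), stood at 1888, 1594, 1518 and 1488 units in the KO lines, against 1458 and 154 units in WT replicates 1 and 2. The other 12 measured Polr2 genes differed between the WT libraries by log2 -0.19 to 1.07, so the low value of WT replicate 2 was not shared by them. Cox20, an assembly factor of cytochrome c oxidase whose exons overlap Hnrnpu (chr1:178319130-178322693), stood at 396, 320, 390 and 392 units in the KO lines, against 526 and 88 units in the WT libraries.

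Dppa5a, an RNA-binding protein gene of pluripotent cells (chr9:78367052-78368177), stood at 36418 units in each KO line, against 78894 and 17548 units in WT replicates 1 and 2. The KO lines lay between the WT libraries. Its longest transcript had 619 bases, and 57.2% of its 31-base words are found in a gene elsewhere. The part of these features in its levels was not tested. The value 78894 was the highest of the table and was shared by 10 genes in each library, so the top levels fall on coarse steps and the gap is approximate. RP24-97D20.2, a single-exon locus (chr3:84174104-84175132), stood at 22827 units in each KO line, against 22827 and 4945 units in the WT libraries. Dppa5a was the only one of 24 measured naive pluripotency genes among the 62. Of that list, 3 were called higher and 4 lower in KO, against 9.75% and 7.34% over all genes. The remaining genes of this direction ran from 202 to 511 units in WT replicate 1 and from 1 to 100 units in WT replicate 2.

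Among the 33 genes higher in WT replicate 2 the fold ran from 4.00 to 49.6 with a median of 8.36, and none was at 0 in any library. In most of them WT replicate 2 was the single high library. Adarb2, Khdrbs2 and Arhgef40 were among the genes with wide gaps. Adarb2, a brain-enriched relative of the RNA-editing deaminases without known editing activity (chr13:8202866-8768747), stood at 92, 84, 100 and 72 units in the KO lines, against 89 and 5144 units in WT replicates 1 and 2. Khdrbs2, an RNA-binding splicing regulator (chr1:32172714-32658568), stood at 140, 106, 98 and 116 units in the KO lines, against 98 and 2109 units in the WT libraries. Arhgef40, a guanine nucleotide exchange factor gene (chr14:51984719-52006251), stood at 46, 56, 38 and 47 units in the KO lines, against 84 and 1420 units in the WT libraries. In each of them WT replicate 2 was high and the 5 other libraries were low. The relatives of Adarb2 and Khdrbs2 did not move with them, since Adarb1 and Adar differed between the WT libraries by log2 0.04 and 0.31 and Khdrbs1 and Khdrbs3 by 0.06 and 0.42.

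**Figure D5:**
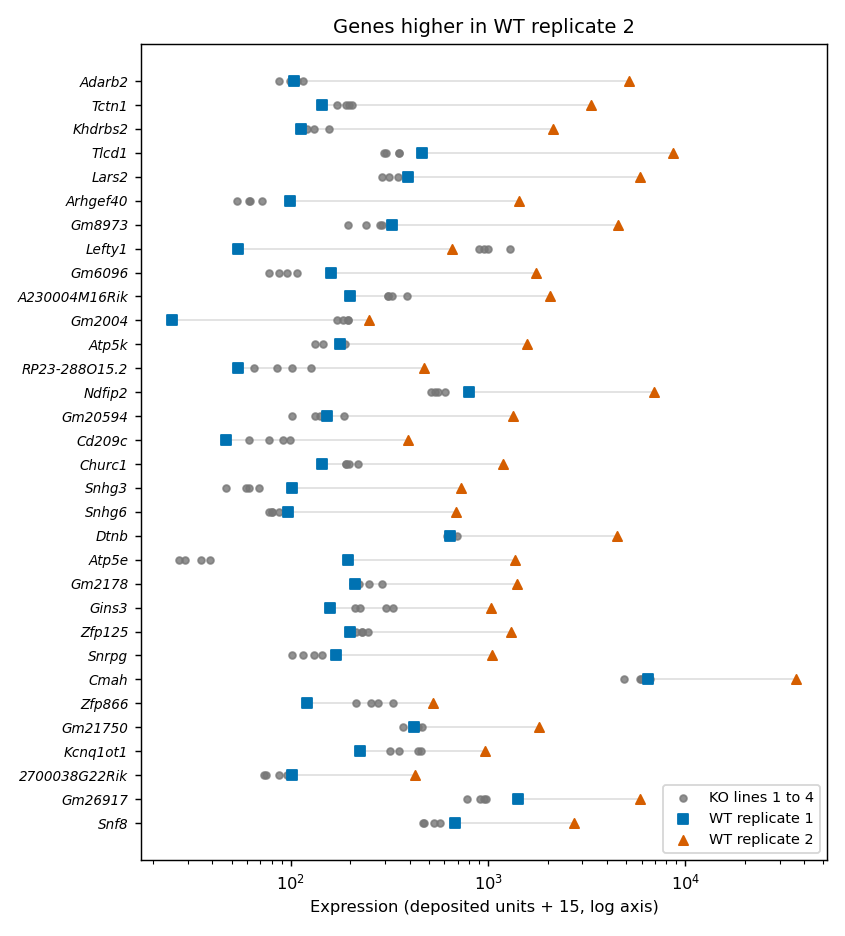
Levels of 32 of the genes higher in WT replicate 2, in deposited units plus 15 on a log axis, with 1 row per gene ordered by the fold between the WT libraries. KO lines are circles, WT replicate 1 squares and WT replicate 2 triangles; in 29 of the 32 rows the mean KO level is nearer WT replicate 1, and Lefty1, Gm2004 and Zfp866 are the others.

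Membrane, trafficking and cilium genes were 7 of the 33. Tctn1, a tectonic protein of the ciliary transition zone (chr5:122237848-122264460), stood at 188, 182, 176 and 156 units in the KO lines, against 128 and 3295 units in WT replicates 1 and 2. Tlcd1, a multi-pass membrane protein gene whose exons overlap Rpl23a and 2 small nucleolar RNAs (chr11:78176711-78181909), stood at 338, 288, 280 and 339 units in the KO lines, against 448 and 8638 units in the WT libraries. Ndfip2, an adaptor of the Nedd4 ubiquitin ligases (chr14:105258573-105309298), stood at 525, 498, 542 and 588 units in the KO lines, against 780 and 6945 units in the WT libraries. WT replicate 1 lay much nearer the KO lines than WT replicate 2 did. Cmah, which hydroxylates CMP-sialic acid (chr13:24327404-24477377), stood at 6578, 5942, 5864 and 4856 units in the KO lines, against 6458 and 36452 units in the WT libraries. WT replicate 2 was again the single high library. The other 3 were the ESCRT-II subunit gene Snf8, the dystrobrevin gene Dtnb and the lectin gene Cd209c. Ndfip1, the relative of Ndfip2, differed by log2 0.24 between the WT libraries.

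Housekeeping subunits and enzymes were 6 of the 33, all with the KO level nearer WT replicate 1. Lars2, the mitochondrial leucyl-tRNA synthetase gene (chr9:123366927-123462666), stood at 274, 332, 300 and 378 units in the KO lines, against 375 and 5846 units in WT replicates 1 and 2. WT replicate 1 lay within the KO range, and WT replicate 2 far above it. Atp5e, the epsilon subunit of the mitochondrial ATP synthase (chr2:174461072-174464105), stood at 24, 12, 20 and 14 units in the KO lines, against 180 and 1346 units in the WT libraries. Atp5k, its e subunit (chr5:108433244-108434448), stood at 165, 131, 174 and 117 units in the KO lines, against 162 and 1561 units in the WT libraries. The KO lines were thus far below both WT libraries for Atp5e, and around WT replicate 1 for Atp5k. Another 15 measured Atp5 genes differed between the WT libraries by log2 -1.38 to 0.35. Of the 99 measured nuclear genes of the respiratory chain, Atp5e, Atp5k and Cox20 were among the 62. In KO, 5 of the 99 were called higher and 1 lower, against 9.75% and 7.34% over all genes. Snrpg, a core protein of the spliceosomal snRNPs, and Gins3, a subunit of the replicative helicase, were also in the group. The other 12 measured Snrp rows ran from log2 -0.84 to 0.65 between the WT libraries.

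Long noncoding RNAs were also 6 of the 33. Kcnq1ot1, the RNA that silences neighbouring imprinted genes on the paternal chromosome (chr7:143203458-143296549), stood at 302, 440, 424 and 336 units in the KO lines, against 209 and 945 units in WT replicates 1 and 2. It was the only one of 20 measured imprinted genes in the rule. In KO, 1 of the 20 was called higher and 2 lower, against 9.75% and 7.34% over all genes. Gm26917 (chr17:39843013-39846341) stood at 764, 942, 964 and 896 units in the KO lines, against 1396 and 5846 units in the WT libraries. Snhg3 and Snhg6, singled out after their values were seen, are hosts of small nucleolar RNAs. Snhg3 stood at 46, 44, 54 and 32 units in the KO lines, against 86 and 710 units in the WT libraries, and Snhg6 at 65, 65, 62 and 72 units in the KO lines, against 82 and 668 units in the WT libraries. WT replicate 2 was the higher WT library for all 8 measured Snhg genes, and for the 6 outside the rule by log2 0.60 or more. Snhg3 and Snhg6 themselves differed by log2 2.84 and 2.82.

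Zinc finger genes and pseudogenes closed this direction. Zfp125, annotated as a transcribed pseudogene (chr12:20877084-20921262), stood at 215, 215, 230 and 199 units in the KO lines, against 185 and 1284 units in WT replicates 1 and 2. Zfp866 (chr8:69761326-69791178) stood at 198, 314, 261 and 239 units in the KO lines, against 106 and 508 units in the WT libraries. Gm8973, a processed pseudogene that shares words with Rpl36 (chr15:99006057-99006369), stood at 274, 226, 268 and 180 units in the KO lines, against 310 and 4513 units in the WT libraries. Of 262 measured Zfp genes these 2 were in the rule, and 19 of the list were called higher and 11 lower in KO. Of 585 genes with a Gm or Rik name, 4 were in the rule on the side of WT replicate 1 and 9 on that of WT replicate 2. Of these 585 genes, 41 were called higher and 29 lower in KO. Over all 10989 genes, 62 were in the rule, and 9.75% were called higher and 7.34% lower. Both name lists thus had lower shares of calls than all genes. The remaining genes of this direction ran from 32 to 666 units in WT replicate 1 and from 378 to 4466 units in WT replicate 2.

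None of the 62 was on the lists of histones (4 measured genes), cytosolic ribosomal proteins (4), hypoxia and glycolysis (22), cholesterol synthesis (22), interferon response (7), 2-cell stage (5) or sex chromosome dosage (6). With 62 of 10989 genes in the rule, lists this short would hold few or none, so their absence says little. By chromosome the 62 were spread, with at most 6 on one (chromosomes 1 and 7). Chromosome 8 as a whole stood higher in WT replicate 2, with a median log2 difference of 0.41 over 603 genes, against -0.15 to -0.01 on the others. It held 4 of the 62, of which Zfp866, Gins3 and Cd209c were higher in WT replicate 2 and Tom1 in WT replicate 1. The part of this shift in their levels was not tested.

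The comparison of KO with WT asks which genes differ when Ddx5 is lost, and for these genes it rests on disagreeing WT libraries. In the limma fit over all 10989 genes, 1071 (9.75%) were called higher and 807 (7.34%) lower in KO at an adjusted p below 0.05. Of the 62 genes, all of which passed the filter, 0 were called higher and 4 lower. An unadjusted p below 0.05 (limma) was found for 21, a count not made over all genes and so not read as an excess. The rule picked genes with a wide WT spread, which the test counts as error, so the low number of calls is in part set by the choice. The median log2 difference of KO minus WT was 1.10 for genes higher in WT replicate 1 and -1.67 for genes higher in WT replicate 2, against 0.04 over all genes. These medians carry the wide WT gap that the rule asked for, so their size is also in part set by the choice. They are not read as an effect of Ddx5 loss.

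The 4 called genes were Serpinf1, Vcam1, Cd248 and Atp5e, all described above with their levels. Mean KO levels were 44.8 ± 12.8, 10 ± 2.31, 13.2 ± 3.40 and 17.5 ± 5.51 units in that order (SD, n = 4). Serpinf1 fell by 3.13 on the log2 scale (SE 0.564, adjusted p = 0.0154, limma). Vcam1 fell by 3.39 (SE 0.617, adjusted p = 0.0157, limma), Cd248 fell by 3.28 (SE 0.579, adjusted p = 0.0147, limma) and Atp5e fell by 4.00 (SE 0.703, adjusted p = 0.0144, limma). In each the 4 KO lines lay below both WT libraries, and their gap to the nearer WT library was wider than the spread among KO lines. The rule capped that spread, so the comparison with it is in part set by the choice of genes and is a description. None of the 4 calls held without KO line 2 (adjusted p = 0.0503 to 0.0542, limma), although the log2 changes of Serpinf1, Vcam1, Cd248 and Atp5e were then -3.004, -3.35, -3.28 and -3.92. The call of Vcam1 also did not hold without KO line 3 (log2 -3.43, adjusted p = 0.0504, limma).

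The number of calls among the 62 also depended on the WT library used, although Serpinf1, Cd248 and Atp5e were called against either one alone. Against WT replicate 2 alone their log2 changes were -2.04, -2.22 and -5.40 (adjusted p = 0.0129, 0.0192 and 0.00109, limma). Against WT replicate 1 alone they were -4.22, -4.33 and -2.60 (adjusted p = 0.00881, 0.00920 and 0.0232, limma). Vcam1 failed the filter on low values in both of these fits and was not tested. Against WT replicate 2 alone, 24 of the 61 genes tested were called higher and 33 lower in KO, while 30.1% of all genes were called in either direction. Against WT replicate 1 alone, 4 were called higher and 12 lower, while 13.5% of all genes were. In both fits the lone WT library is assumed to vary like the KO lines, and the choice of genes fixed that at least one WT library lay away from the KO lines. All 4 KO lines lay above both WT libraries for 5 of the 62 genes and below both for 16. Over all genes this held for 24.1% and 19.6%. The 5 were AC123072.1, Kcnh7, Polr2l, Gm13625 and Lefty1, with no call for any of them. For the other 41 genes the KO lines overlapped the range set by the WT libraries.

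Near the 4-fold threshold, Snf8, Gm26917 and 2700038G22Rik lay just inside with folds of 4.00, 4.15 and 4.23. RP23-354D10.5 and RP23-333I7.1, both higher in WT replicate 2, and Leng1, higher in WT replicate 1, lay just outside with 3.99, 3.96 and 3.93. Snf8 had 666 and 2711 units in WT replicates 1 and 2, and RP23-354D10.5 had 58 and 276 units, so the boundary separates genes of much the same gap.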

How the data were processed

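Values for 10989 genes in 4 KO and 2 WT libraries were analysed. The authors deposited whole numbers under the name CPM, but the library totals exceed what that unit allows, so the deposited values were taken as a normalized score of unknown unit. The test had been planned for a unit to be checked, and this score was put on a log2 scale. Per the submitters' processing notes, mm10, Bowtie2 2.2.0 and RSEM 1.2.17 were used. No role, gene annotation or normalization step is stated with them. Depth is unknown, so no counting interval is given.

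KO and WT were compared with limma 3.58.1 (R 4.3.3, lmFit and eBayes with trend, two-sided) on log2(value + 15), with all 6 libraries, no covariate and 4 residual degrees of freedom. Log2 changes on this scale understate the change of low genes. p-values were adjusted by Benjamini-Hochberg over 10989 genes, called below 0.05. Genes needed 15 units in at least 2 libraries, which removed none. The script was tested on simulated data.

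Genes were matched by identifier to GENCODE M21 (10941 matched, 61 of the 62). Shared sequence is the percentage of a gene's 31-base words, on either strand, found in another gene's transcripts. It replaced a planned protein comparison. Sequences were aligned with Biopython 1.88 (Python 3.11.15), and figures drawn with matplotlib 3.10.9.

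The genes, lists and role groups were chosen with earlier results of these data known. Values in every library are given for 37 of the 62, and 1 more gene that the rule names is not reported here. The rule names in each direction the 8 widest WT folds and the 6 highest levels, and all called genes, list members other than those with a Gm or Rik name, near-identical copies and genes at 0 in a WT library. Alternatives were offsets, thresholds, filters, scaling, variance models, a replicate block and each library left out.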

Additional observations from a re-analysis of the deposited data

Results flagged for a closer look

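Cox20 in the KO lines was marked because KO line 2, at 320 units, lay below the other 3 lines, at 396, 390 and 392 units. The gap to the nearest line was 0.921 of the whole range. Of 36 genes whose KO values were examined in this way, 1 was marked, and chance marks about 1 in 20 unselected groups. All 36 had passed the cap of the rule on KO spread, so that rate need not apply to them. WT replicates 1 and 2 stood at 526 and 88 units, so the gap in KO is small beside the difference between the WT libraries. A group of 2 WT libraries is too small for this check.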

How the results depend on the processing

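Of 120 recomputed summary counts, 97 lay within a fixed ratio of the main count and 23 moved. That ratio is wide, since 47 in place of 33 genes higher in WT replicate 2, at a KO spread of at most 3, counted as kept. Of 54 values for single genes, 45 stayed on their side of the threshold, 9 lost the call and none reversed. The thresholds of the rule set how many genes were taken. From 29 genes higher in WT replicate 1 the number became 53 at a WT fold of 3, 18 at a fold of 6, 90 at a level of 100 units and 11 at 400 units. The 33 genes higher in WT replicate 2 became 66 at a fold of 3. With quantile normalization 54 of the 62 genes met the rule, and with median-ratio scaling all 62 did. With library weights 206 genes were called higher and 176 lower over all genes. Without one library at a time, 237 to 2004 genes were called higher and 235 to 1300 lower over all genes, and 0 to 24 higher and 0 to 33 lower among the 62. The extremes came without KO line 2 (237 and 235) and without WT replicate 1 (2004 and 1300), and without KO line 3 it was 307 and 267. Without KO line 1 it was 686 and 538, and without WT replicate 2 it was 806 and 678. Without the 7 matrix and adhesion genes, a setting added after seeing the data, 6 in place of 12 genes had their KO level nearer WT replicate 2. With the replicate block, 2 genes were called higher and 18 lower over all genes, and 0 of the 62. KO lines 3 and 4 share their number with no WT library, so in this fit they added nothing to the KO difference. Serpinf1, Vcam1, Cd248 and Atp5e then had log2 changes of -3.20, -3.39, -3.36 and -3.99, with adjusted p = 0.0802 to 0.125 (limma). The deviations of KO lines 1 to 4 from their group mean correlated with those of WT replicate 1 at 0.145, -0.0974, -0.0961 and 4.03e-05. With 2 WT libraries the values for WT replicate 2 are the same with the sign turned, so they are no second check. Same-number pairs were the highest for each WT library but weak. These values do not settle whether the numbers pair the libraries. The cause of these changes was not tested. With 2 WT libraries, neither can be said to be the typical one.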
